A study of Homo sapiens with 21 samples.

Results

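The 9 genes described here encode enzymes of the pentose phosphate pathway and 2 cytosolic NADPH makers outside it. They were chosen by name: H6PD, PGLS and PGD of the oxidative branch, RPIA, RPE, TKT and TALDO1 of the non-oxidative branch, and ME1 and IDH1, which make NADPH from malate and isocitrate. All 9 were found among the 60651 human genes counted, and all 9 were among the 16990 genes that passed the filter on low counts over 21 tumors. The tumors were xenografts of A549-Luc2, a luciferase-expressing line of human lung adenocarcinoma cells, injected with Matrigel under the skin of the hind flank of female athymic nu/nu mice aged 6 to 8 weeks. Mice were randomized into 3 groups of 10, and 7 tumors of each group were sequenced. Control mice received the vehicle, a DMSO, ethanol, PEG400 and corn oil mixture. Oxy186 mice and Oxy210 mice received the named oxysterol derivative in that vehicle once a day by gavage at 50 mg/kg. Every tumor, control tumors included, came from the same line and the same kind of host, which lacks mature T cells but keeps its own fibroblasts, vessels and other leukocytes. The study took Oxy186 tumors r1 to r4 forward from a principal component plot of these same libraries, so their comparison with control is given apart from the labelled groups and a call in it is not independent evidence of a response.

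The pentose phosphate pathway takes glucose 6-phosphate out of glycolysis. Its oxidative branch yields NADPH and ribulose 5-phosphate, and its non-oxidative branch interconverts sugar phosphates, linking ribose for nucleotides back to glycolysis. NADPH is the reductant for fatty acid and cholesterol synthesis and for the glutathione and thioredoxin systems. A549 cells lack functional KEAP1, the adaptor that targets the transcription factor NRF2 for degradation, and several genes of this pathway, together with ME1 and IDH1, are known NRF2 targets in such cells.

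Because NRF2 binds antioxidant response elements, the 9 promoters (RefSeq, GRCh38.p14, 250 bases before to 50 after each annotated start) were searched on both strands for the core letters TGACNNNGC, where N is any base. At least 1 window of 4 of the 9 genes held a match, PGD, RPE, ME1 and IDH1. Of the 35116 promoter windows of all genes 13.3% did, a share of windows rather than of genes, and IDH1 had 2 windows. The matches upstream of the start are printed 5′ to 3′ on the strand of the gene, with the matched bases in capitals, since they hold letters that NRF2 is known to bind.
PGD, chr1:10398853-10398881, plus strand of the genome, matched on the reverse strand 201 to 193 bases upstream: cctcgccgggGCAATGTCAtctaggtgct
RPE, chr2:210002477-210002505, plus strand, 151 to 143 bases upstream: ggcggacggcTGACAGCGCcccaccccag
ME1, chr6:83431170-83431198, minus strand, 137 to 129 bases upstream: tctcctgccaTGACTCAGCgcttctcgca
IDH1, chr2:208255196-208255224, minus strand, 143 to 135 bases upstream of the farther upstream of its 2 annotated starts: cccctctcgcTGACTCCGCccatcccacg
The ME1 match also holds TGACTCA, the letters of an AP-1 site, which 4.95% of all windows contain and no other window of the 9 genes does. ME1 has a second core match, on the reverse strand within the 50 bases after its start. No match was found in the windows of H6PD, PGLS, RPIA, TKT or TALDO1, which says only that these letters are not in these windows. Among other genes searched the same way, TXNRD1 and GCLM held a core match, while NQO1 and SRXN1 held none. Known NRF2 targets such as SRXN1 can thus lack these letters in the windows searched. Control of the 9 genes by NRF2 was not tested.

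Total counts on human genes ran from 13787493 to 17865119 per tumor. The labelled line was checked against its markers: the 9 A549 and epithelial markers summed to between 15941 and 30075 CPM (counts scaled to a common library size with TMM factors), and CDKN2A, which is deleted in A549, had 0 counts in all 21 tumors. The summed CPM of 6 fibroblast markers was 76.7 to 260 per tumor, of 4 endothelial markers 1.19 to 5.78 and of 5 leukocyte markers 12.05 to 31.9, with overlapping ranges in the 3 groups. The fibroblast sum was mostly LUM, at 112 ± 30.7 CPM in control tumors (SD, n = 7), and COL1A1, at 42 ± 13, while COL1A2, COL3A1 and PDGFRB had at most 1, 7 and 8 counts in any tumor. Of the other markers VWF, KDR, PTPRC and CD68 had at most 2, 1, 8 and 6 counts, and LYZ, at 4.42 to 22.7 CPM in control tumors, and ITGAM, at 4.66 to 8.51, made up most of the leukocyte sum. Only reads aligned to the human part of a combined human and mouse genome were counted, so these sums do not measure the cells of the mouse host. The source of these marker counts, and the part of such cells in the results, were not tested. Libraries differed in how log2 CPM changed with the GC content of a gene's exons. This slope, per 10 points of GC, ran from -0.15 to 0.40 in control tumors, from -0.33 to 0.26 in Oxy210 tumors and from -0.51 to 0.49 in Oxy186 tumors, where r1 to r4 (-0.51 to -0.18) lay below every control tumor and r5 to r7 (0.079 to 0.49) did not. Because exon GC content of the 9 genes runs from 37.9% (RPE) to 61.2% (PGLS), results are given both as normalized and with an offset for each library's GC trend.

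PGD was the most abundant of the 9 transcripts and RPIA and H6PD the least. Levels were compared between genes as CPM per kb of the MANE Select transcript, the reference transcript of each gene. In control tumors PGD stood at 437 ± 87.1 CPM per kb (SD, n = 7) and was above TKT, at 293 ± 62.1, in 21 of 21 tumors. TALDO1 followed at 290 ± 76.7, but TKT and TALDO1 did not differ beyond their spread, with TKT the higher in 11 of 21 tumors. IDH1 stood at 114 ± 30.1, PGLS at 61.1 ± 19.8 and ME1 at 25.2 ± 6.02 CPM per kb, each above the next in all 7 control tumors. RPE followed at 13.9 ± 3.18. H6PD at 8.86 ± 1.07 and RPIA at 8.51 ± 1.61 ended the order and were not separable, with H6PD the higher in 10 of 21 tumors. The order depends on which length is used: over all annotated exons, a setting chosen after seeing the data, TALDO1 (119 ± 31.6) was above TKT (92.5 ± 19.6) in 21 of 21 tumors and ME1 (25.2 ± 6.02) above PGLS (21.7 ± 7.02) in 17 of 21. Together the 9 genes took 0.213% to 0.319% of all counts in control tumors, 0.213% to 0.358% with Oxy186 and 0.192% to 0.327% with Oxy210. PGD and TKT supplied between 61.7% and 70.2% of those counts in every tumor.

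**Figure D1:**
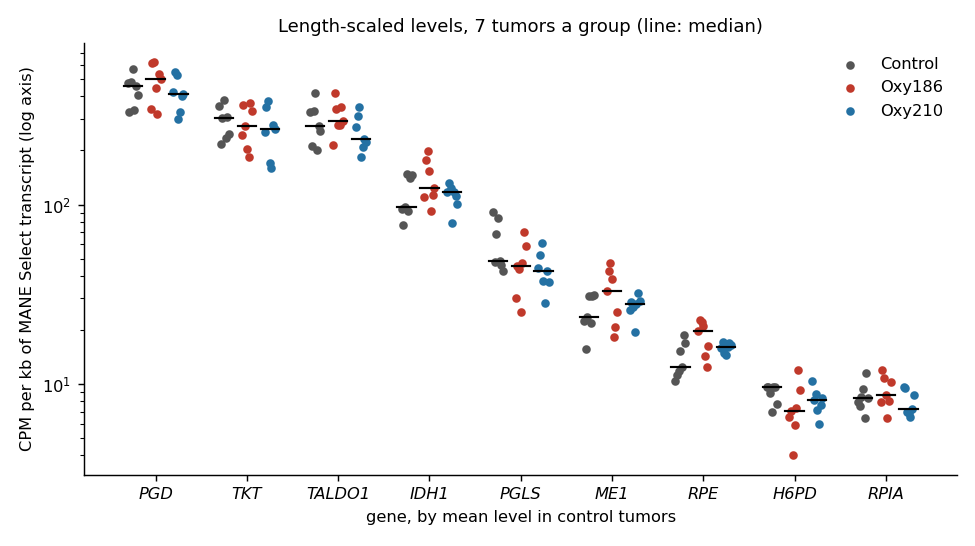
Length-scaled level (CPM per kb of MANE Select transcript, log axis) of each gene in the 7 tumors of each group, ordered by the control mean, with a line at each group's median. Levels fall from PGD, at 437 CPM per kb in control tumors, to RPIA, at 8.51, and the groups overlap for all 9 genes.

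In the oxidative branch, H6PD encodes the bifunctional enzyme of the endoplasmic reticulum that runs the first 2 steps there. Its gene lies at chr1:9234774-9271337 on the plus strand (GRCh38, GENCODE 44), with 56.5% GC in its exons. H6PD ran from 63.9 to 88.1 CPM with a median of 87.5 in control tumors, from 36.6 to 109 with a median of 64.5 in Oxy186 tumors and from 54.8 to 94.7 with a median of 74.4 in Oxy210 tumors. The Oxy186 tumors reached both lower and higher than the control tumors: r3 was the lowest of all 21 and r6 the highest. PGLS, at chr19:17511636-17521288 (plus strand, 61.2% GC), encodes 6-phosphogluconolactonase, the second enzyme of the branch. PGLS ran from 42.7 to 91.2 CPM (median 49.0) in control, from 25.4 to 70.6 (median 46.1) in Oxy186 and from 28.5 to 61.4 (median 42.7) in Oxy210 tumors. No treated tumor exceeded the highest control tumor, and 4 of 7 Oxy210 tumors lay under the lowest. PGD, at chr1:10398592-10420511 (plus strand, 52.9% GC), encodes 6-phosphogluconate dehydrogenase, which makes NADPH and ribulose 5-phosphate. PGD ran from 745 to 1298 CPM (median 1039) in control, from 726 to 1407 (median 1138) in Oxy186 and from 680 to 1241 (median 935) in Oxy210 tumors. The 3 groups overlapped throughout, with Oxy186 r2 and r3, at 1396 and 1407 CPM, above every other tumor.

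In the non-oxidative branch, RPIA, at chr2:88691673-88750929 (plus strand, 48.3% GC), encodes the isomerase that makes ribose 5-phosphate. RPIA ran from 11.7 to 20.97 CPM (median 15.1) in control, from 11.6 to 21.7 (median 15.6) in Oxy186 and from 11.9 to 17.4 (median 13.1) in Oxy210 tumors, 176 to 313 counts per tumor, and the groups overlapped. RPE, at chr2:210002565-210022260 (plus strand, 37.9% GC), encodes the epimerase that makes xylulose 5-phosphate. RPE ran from 33.1 to 59.9 CPM (median 39.7) in control, from 39.7 to 72.7 (median 63.0) in Oxy186 and from 46.0 to 54.2 (median 50.8) in Oxy210 tumors. All 7 Oxy210 tumors and 6 of 7 Oxy186 tumors exceeded the control median, and 4 Oxy186 tumors exceeded every control tumor. With each library's GC trend removed, 1 Oxy186 tumor exceeded every control tumor. Of RPE's exon bases 23.8% overlap exons of KANSL1L on the opposite strand, and because no source used here says whether reads were counted by strand, RPE counts may hold reads of that gene. TKT, at chr3:53224712-53256052 (minus strand, 56.7% GC), encodes transketolase. TKT ran from 655 to 1150 CPM (median 907) in control, from 552 to 1099 (median 818) in Oxy186 and from 480 to 1130 (median 790) in Oxy210 tumors. No treated tumor was above the highest control tumor, and 2 in each treated group were below the lowest. TALDO1, at chr11:747415-765012 (plus strand, 53.7% GC), encodes transaldolase, the partner of transketolase in the carbon exchanges of this branch. TALDO1 ran from 240 to 503 CPM (median 330) in control, from 259 to 500 (median 351) in Oxy186 and from 220 to 418 (median 277) in Oxy210 tumors, with the groups overlapping.

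ME1, at chr6:83210402-83431051 (minus strand, 39.3% GC), encodes the cytosolic malic enzyme, which turns malate into pyruvate and makes NADPH. ME1 ran from 52.0 to 104 CPM (median 78.5) in control, from 61.2 to 157 (median 111) in Oxy186 and from 65.4 to 108 (median 93.2) in Oxy210 tumors. Oxy186 r1 to r4 were above every other tumor of the study, while r5 to r7 lay within the control range. Such a separation from control, with r1 to r4 higher, was seen in 3.2% of all genes. With each library's GC trend removed, 2 of the 4 ME1 values lay above every control tumor. IDH1, at chr2:208236229-208266074 (minus strand, 44.5% GC), encodes the cytosolic and peroxisomal isocitrate dehydrogenase. IDH1 ran from 179 to 345 CPM (median 226) in control, from 213 to 459 (median 287) in Oxy186 and from 183 to 304 (median 272) in Oxy210 tumors. Of the 7 Oxy186 tumors 3 were above every control tumor, and the Oxy210 range lay inside that of the control tumors. Opposite-strand exons cover 8.94% of PGLS exon bases (PGLS-DT) and 2% of those of IDH1 (IDH1-AS1), so the same uncertainty applies there on a smaller scale.

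**Figure D2:**
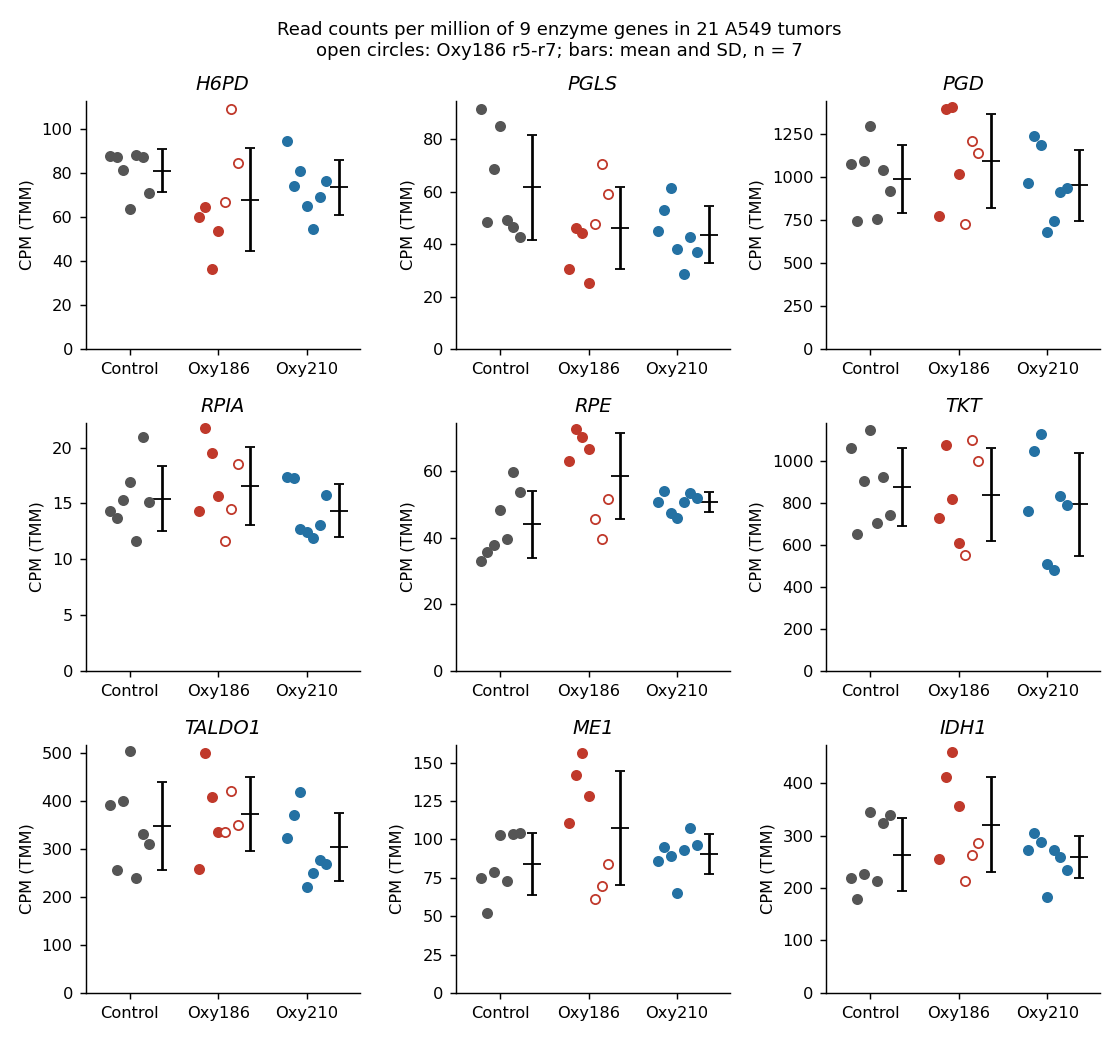
CPM (TMM-normalized, linear axis from 0) of each gene in every tumor, with points for tumors r1 to r7 from left to right in each group, open circles for Oxy186 r5 to r7, and the group mean with its SD (n = 7). As normalized, RPE and ME1 in Oxy186 r1 to r4 sit above all 7 control tumors, at 63.0 to 72.7 and 111 to 157 CPM. Of all genes 3.2% had r1 to r4 above every control tumor. With each library's GC trend removed, 1 of the 4 RPE values and 2 of the 4 ME1 values did so.

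With the groups as labelled, none of the 9 genes passed the test between any 2 groups. For Oxy186 against control, edgeR's quasi-likelihood test called 0 of 9 at an adjusted p (Benjamini-Hochberg) of 0.05 or less, where 0% of the 16291 genes tested were called. At an unadjusted p under 0.05 it found 1 of the 9, RPE, and 618 genes in all (3.79%), and limma voom and DESeq2 called 0 genes as well. RPE had a log2 fold change of 0.39 (SE 0.17, 1.31-fold, edgeR adjusted p = 0.862). The 9 log2 fold changes ran from -0.43 (PGLS) to 0.39 (RPE) with a median of 0.089, beside -0.0067 over all genes. With GC offsets they ran from -0.12 to 0.29, with 7 of 9 above 0 and 0 called. The median was then 0.20, beside 0.011 over all genes. In these bulk samples fewer cells of a type and less RNA per cell cannot be told apart. For Oxy210 against control, edgeR called 0 of 9, beside 0% of 16396 genes, with 2270 genes (13.8%) at an unadjusted p under 0.05. DESeq2 called 92 genes in that comparison (0.561%), none of them among the 9, and limma voom called 0. PGLS, the 1 gene of the 9 at an unadjusted p under 0.05, had a log2 fold change of -0.48 (SE 0.18, 0.718-fold, edgeR adjusted p = 0.298). With GC offsets it was -0.25 (SE 0.10, edgeR adjusted p = 0.291). Of the 9 values 7 were below 0, as were those of 48.7% of all genes, and the median of the 9 was -0.085 beside 0.0086 over all genes. These comparisons share the control tumors.

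The 2 oxysterol derivatives were compared directly at their shared dose, over tumors that share no control. edgeR called 0 of the 9 genes between Oxy186 and Oxy210 tumors, beside 0% of 16361 genes, with 664 genes at an unadjusted p under 0.05, none of them among the 9. DESeq2 called 14 of the 1770 genes to which it gave an adjusted p, but of the 9 only PGD, TKT, TALDO1 and IDH1 got one, so it could call 4 of the 9 and called 0. limma voom called 0 genes. Of the 9 genes 8 were on the Oxy186 side of 0, with a median log2 fold change of 0.20, beside -0.0068 over all genes, 51.5% of which lay below 0. IDH1 had the largest difference, 0.30 on the log2 scale (95% interval -0.055 to 0.65), followed by TALDO1 at 0.29 (-0.050 to 0.62) and ME1 at 0.24 (-0.17 to 0.65). RPE (0.20, -0.088 to 0.48), RPIA (0.20, -0.13 to 0.53) and PGD (0.19, -0.17 to 0.56) had like values, and H6PD was the 1 gene below 0 (-0.12, -0.52 to 0.27). Over the 9 genes every interval spans 0, with lower bounds from -0.52 to -0.050 and upper bounds from 0.27 to 0.65, so these data neither separate the compounds on these genes nor show that they act alike. Under GC offsets TALDO1 stood at 0.32 (95% interval 0.034 to 0.61, edgeR adjusted p = 0.594), and 8 of 9 were again above 0, with 0.00611% of genes called.

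**Figure D3:**
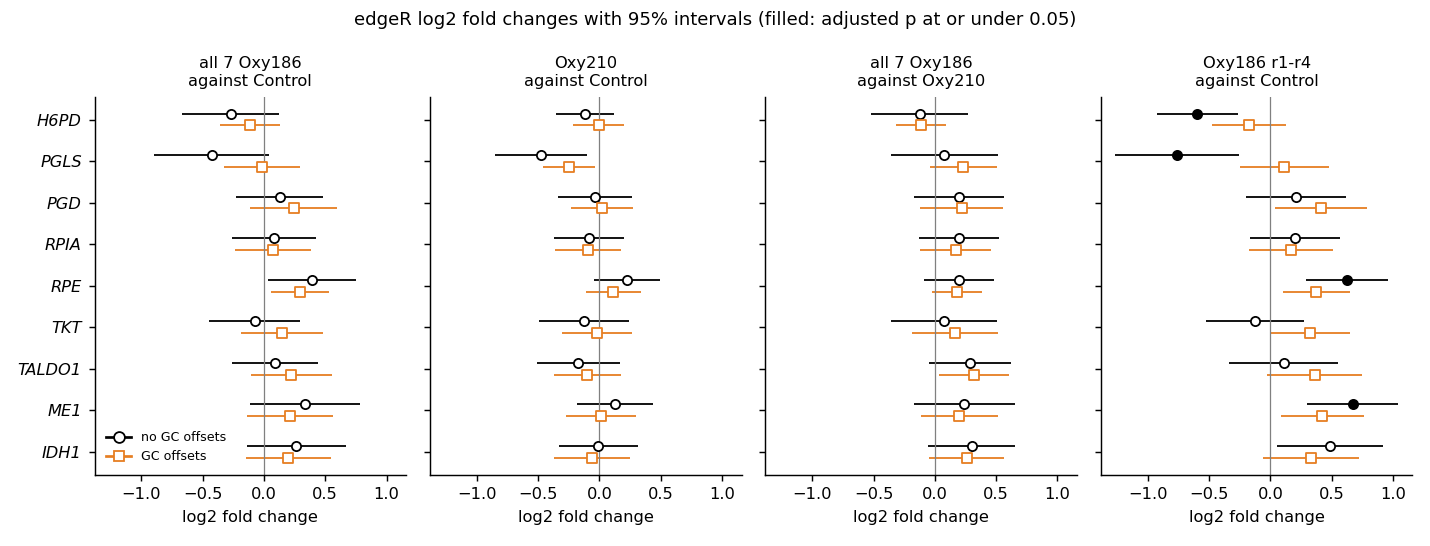
Log2 fold changes of the 9 genes with 95% intervals (edgeR) in the 4 comparisons, as normalized (black circles) and with GC offsets (orange squares), filled where the adjusted p was at or under 0.05. Filled points occur only for H6PD, PGLS, RPE and ME1 in Oxy186 r1 to r4 against control without GC offsets.

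In the subset the study took forward, 4 of the 9 genes differed from control: RPE and ME1 were higher, H6PD and PGLS lower. Of all 16852 genes tested 19.7% were called in this comparison, 4.73% higher and 15% lower, and 0 of the 9 also passed the fold of 2 used by the study, which 8.34% of all genes did. RPE in Oxy186 r1 to r4 was at 63.0, 72.65, 70.5 and 66.6 CPM, each above the highest control tumor (59.9). Its log2 fold change was 0.63 (SE 0.16, 1.54-fold, edgeR adjusted p = 0.0123). ME1 was at 111, 142, 157 and 129 CPM, each above the highest control tumor (104). Its log2 fold change was 0.67 (SE 0.18, 1.59-fold, edgeR adjusted p = 0.0153). Of all genes 11.6% had no overlap between r1 to r4 and control tumors, 3.2% with r1 to r4 higher and 8.4% with them lower. With each library's GC trend removed, only 1 of the 4 RPE values and 2 of the 4 ME1 values lay above every control tumor. H6PD was at 60.2, 64.5, 36.6 and 53.9 CPM, of which 3 lay below the lowest control tumor, and fell by 0.59 on the log2 scale (SE 0.16, 0.662-fold, edgeR adjusted p = 0.0156). PGLS was at 30.4, 46.1, 44.1 and 25.4 CPM, of which 2 lay below the lowest control tumor, and fell by 0.76 (SE 0.24, 0.590-fold, edgeR adjusted p = 0.0356). IDH1, at 255, 411, 459 and 357 CPM, had a log2 fold change of 0.49 (SE 0.20, edgeR adjusted p = 0.0995). PGD, RPIA, TALDO1 and TKT had values of 0.21, 0.20, 0.11 and -0.13, with adjusted p from 0.430 to 0.747 in edgeR. Single tumors decided part of this count: without r3 only RPE was called (adjusted p = 0.0396) and without r4 only RPE and ME1, while without r1 IDH1 was called (0.63, adjusted p = 0.0454) and PGLS was not (adjusted p = 0.0909).

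The 9 differences in r1 to r4 followed exon GC content. The GC-poor genes RPE, ME1 and IDH1 were the 3 highest and the GC-rich PGLS and H6PD the 2 lowest, with Pearson r = -0.91 and Spearman rho = -0.95 between log2 fold change and GC content over the 9 genes, which share their libraries. Genes of like GC content moved the same way, in windows from which the 9 genes were not taken out. The median log2 fold change of the 1167 genes within 1 point of RPE's GC content was 0.27, of the 1474 near ME1 0.25, of the 1014 near H6PD -0.45 and of the 745 near PGLS -0.85. RPE at 0.63 and ME1 at 0.67 were thus further up than the median of their GC neighbours, and PGLS at -0.76 was not as far down as its own. TKT at -0.13 and PGD at 0.21 were likewise above medians of -0.47 and -0.20. H6PD at -0.59 was below the -0.45 median of its neighbours. With GC offsets 0 of the 9 genes were called, beside 4.05% of all genes. At an unadjusted p under 0.05 there were 4 of the 9, PGD, RPE, TKT and ME1, and 3157 genes in all. RPE was then at 0.38 (SE 0.13, edgeR adjusted p = 0.120), ME1 at 0.42 (SE 0.16, adjusted p = 0.158), PGD at 0.41 (SE 0.18, adjusted p = 0.215) and TKT at 0.33 (SE 0.15, adjusted p = 0.262). H6PD went to -0.17 (adjusted p = 0.556) and PGLS to 0.11 (adjusted p = 0.779). Under the offsets 8 of 9 values were above 0 with a median of 0.33, beside 0.0054 over all genes, of which 49.3% lay below 0.

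**Figure D4:**
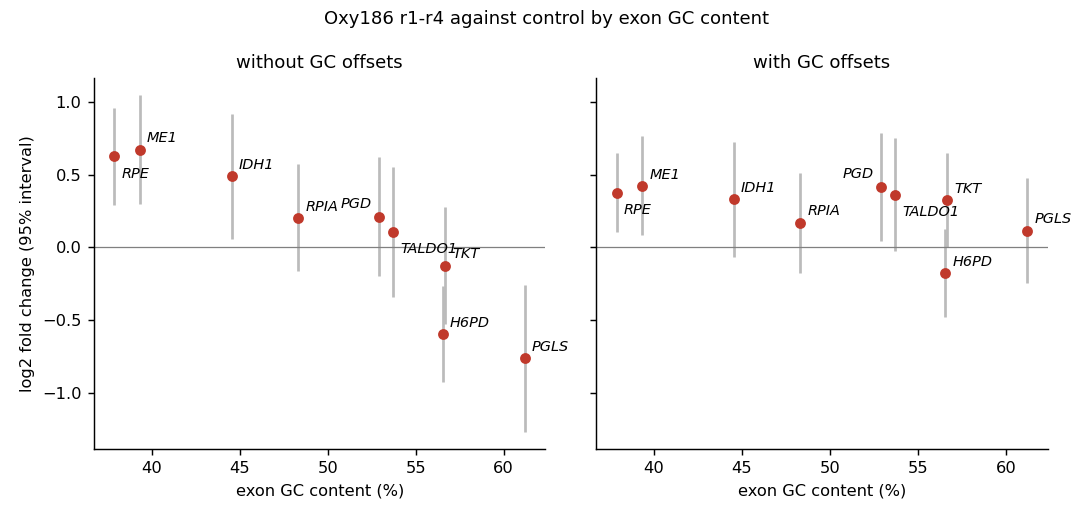
Log2 fold change (edgeR, with 95% interval) of each gene in Oxy186 r1 to r4 against control, plotted against the GC content of its exons, without GC offsets on the left and with them on the right. On the left the values fall from 0.63 for RPE at 37.9% GC to -0.76 for PGLS at 61.2%; on the right they run from -0.17 (H6PD) to 0.42 (ME1).

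Across tumors, log2 CPM of each of the 9 genes was set beside the library's GC slope. That slope was fitted to the log2 CPM of genes in these same libraries, so GC-rich genes tend to rise with it and GC-poor genes to fall. The values therefore describe how closely each gene followed the slope and are no separate test of the GC trend. The share of all genes that would pass was not computed. Over 21 tumors log2 CPM of PGLS rose with the slope (r = 0.85, rho = 0.88, permutation p = 2e-05, adjusted over 9 genes 9e-05), and r was 0.87, 0.83 and 0.94 within control, Oxy186 and Oxy210 tumors and 0.89 once the 2 tumors with the most extreme slopes were left out. H6PD also rose with it (r = 0.84, rho = 0.77, permutation p = 1e-05, adjusted 9e-05), with r of 0.23, 0.93 and 0.82 within the groups. RPE went the other way (r = -0.76, rho = -0.73, permutation p = 6e-05, adjusted 0.00018), with -0.72, -0.90 and -0.13 within the groups. ME1 had r = -0.64 (rho = -0.64, permutation p = 0.00165, adjusted 0.00371), but without the 2 farthest tumors r was -0.47, and within control and Oxy210 tumors it was -0.32 and -0.046. TKT had r = 0.55 (rho = 0.58, permutation p = 0.0105, adjusted 0.019), and the other 4 genes did not pass. These calls depend on Oxy186 r1 to r4: over the 17 other tumors TALDO1 (r = 0.73, adjusted permutation p = 0.00344) and PGD (r = 0.62, adjusted permutation p = 0.0138) passed and ME1 did not (r = -0.32, adjusted permutation p = 0.264), while PGLS, H6PD, TKT and RPE passed as before.

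Many of the 9 genes varied together from tumor to tumor, and some ran against each other. Of their 36 pairs, 23 were correlated over 21 tumors at an adjusted p at or under 0.05 (100000 permutations, Benjamini-Hochberg over 36 pairs). Of the 23, 19 were positive and 4 negative, and the median r over all 36 was 0.50. The share of all gene pairs that would pass was not computed, so these counts do not set the 9 genes apart from others. The 4 negative pairs joined GC-rich with GC-poorer genes: H6PD with RPE (r = -0.64), ME1 (-0.64) and IDH1 (-0.51), and PGLS with RPE (-0.58). PGD and TALDO1 had the highest r, 0.90 (rho = 0.88, permutation p = 1e-05, the smallest that 100000 permutations can give, adjusted 9e-05). It was 0.94 without the 2 farthest tumors, for a pair those farthest from the median of the gene named first. It was 0.88 without Oxy186 r1 to r4, and 0.98, 0.83 and 0.95 within control, Oxy186 and Oxy210 tumors. ME1 and IDH1 had r = 0.89 (rho = 0.79, adjusted permutation p = 9e-05), with 0.82 without the 2 farthest tumors and 0.96, 0.90 and 0.70 within the groups. RPE and ME1, the GC-poor pair, had r = 0.87 (rho = 0.90, adjusted permutation p = 9e-05). PGD and TKT, the 2 most counted genes of the set, had r = 0.84 (rho = 0.85, adjusted permutation p = 9e-05), and 0.95 without r1 to r4. Without r1 to r4, 12 of 36 pairs passed over 17 tumors, all of them positive. Within single groups of 7 exact permutation tests passed 4 pairs in control tumors and 0 in each treated group, with median r of 0.52, 0.49 and 0.55.

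After removal of each library's GC trend, 29 of the 36 pairs passed, 26 positively and 3 negatively, with a median r of 0.70 over all 36. Without r1 to r4, a setting added after the data were seen, 24 of 36 passed. The share of all gene pairs that would pass was not computed here either. For TKT and ME1, a GC-rich and a GC-poor gene, r went from 0.24 to 0.92 (rho = 0.91, adjusted permutation p = 5.1e-05), with 0.91, 0.96 and 0.91 within control, Oxy186 and Oxy210 tumors. PGD then had r = 0.91 with IDH1, 0.90 with ME1, 0.89 with TKT and 0.88 with TALDO1. Among 8549 protein-coding genes whose log2 CPM averaged 4 or more, IDH1 was the 7th nearest to PGD, ME1 the 15th, TKT the 26th and TALDO1 the 40th, where the median gene had r = 0.11. For ME1 the nearest of all was TKT, PGD was the 3rd and IDH1 the 6th. RPE, RPIA and PGLS were farther from PGD, with r of 0.74, 0.72 and 0.69. Of the genes searched 6.11%, 7.52% and 9.52% reached those values. TKT and TALDO1 had r = 0.72, which 6.04% of genes reached with TKT. PGLS and ME1 passed at r = 0.56, which 15.4% of genes reached with PGLS. After the trend was removed H6PD had r below 0 with all 8 others, from -0.016 with RPIA to -0.75 with PGLS. The PGLS pair (rho = -0.49, adjusted permutation p = 0.000614) stood at 0.50 before. Of the 8 pairs 3 passed (PGLS, PGD and TALDO1). With PGD r was -0.50 (rho = -0.29) and -0.13 without the 2 farthest tumors, and with TALDO1 it was -0.64 and -0.41. Without the 2 farthest, r was 0.30 with RPIA and 0.0081 with RPE. For H6PD and PGLS the size of r over all tumors depended on few of them, since it was -0.36 without the 2 farthest. Within control, Oxy186 and Oxy210 tumors it was also negative, at -0.92, -0.79 and -0.55.

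**Figure D5:**
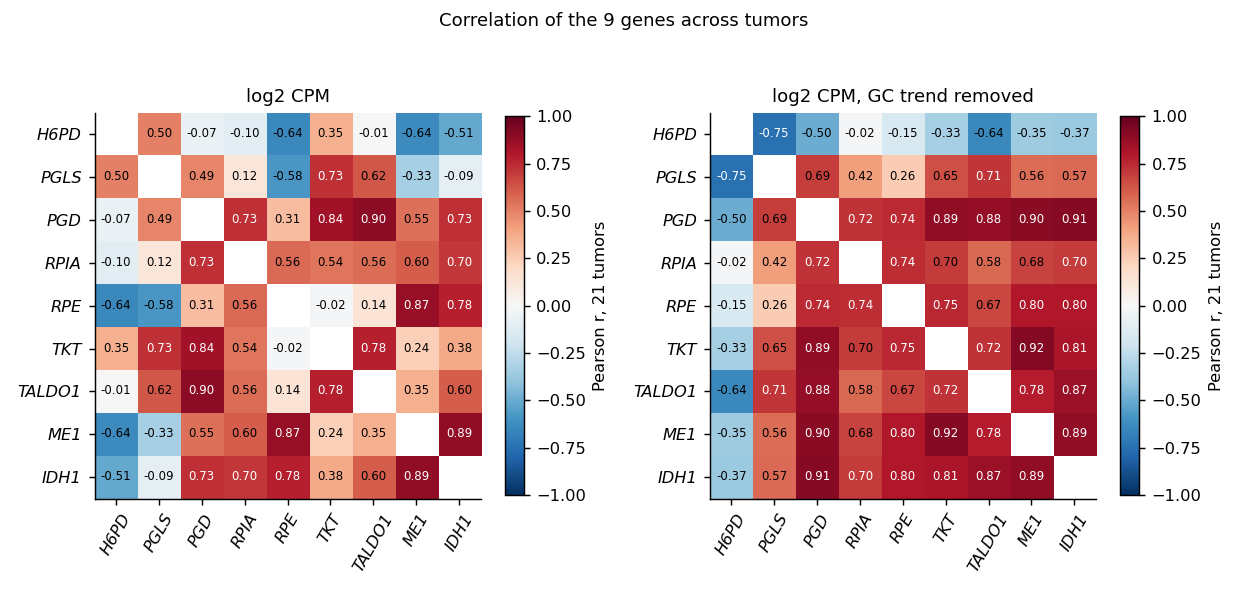
Pearson correlation over 21 tumors for each pair of the 9 genes, from log2 CPM on the left and from log2 CPM with each library's GC trend removed on the right; red is positive and blue negative. The block of PGD, TKT, TALDO1, ME1 and IDH1 on the right holds values between 0.72 and 0.92. The H6PD row runs from -0.016 (RPIA) to -0.75 (PGLS).

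The genes whose GC-corrected pattern was most like each enzyme's over the 21 tumors, among 8550 protein-coding genes, were mostly outside the pathway. WDR18 (r = 0.94) and MRPL4 (0.94) were nearest to PGD, SLC27A4 (0.93) and BTBD2 (0.93) to TKT, SNRPD1 (0.92) and SKP1 (0.92) to TALDO1, and TKT (0.92) and COQ2 (0.91) to ME1. IDH1 was nearest to FDFT1 (0.93), which encodes squalene synthase, an NADPH-using enzyme of cholesterol synthesis, and to DCTPP1 (0.91). PGLS was nearest to EIF3K (0.92) and EIF3I (0.91), 2 subunits of a translation initiation factor, RPE to MPHOSPH6 (0.90) and RFC4 (0.88), RPIA to ACTR3 (0.85) and STARD7 (0.83), and H6PD to BRD3 (0.86) and RGP1 (0.85).

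Paralogs of the set were barely counted or were not called. The transketolase-like genes TKTL1 and TKTL2 had at most 2 and 7 counts in any tumor and the epimerase paralog RPEL1 at most 6, under the filter. The mitochondrial malic enzymes ME2 and ME3 stood at 38.7 ± 9.72 and 43.3 ± 8.10 CPM in control tumors (SD, n = 7) and the mitochondrial IDH2 at 98.9 ± 22.01. In edgeR none of the 3 passed in any comparison. For Oxy210 against control IDH2 had a log2 fold change of -0.40 (SE 0.16, edgeR adjusted p = 0.302), and IDH1 one of -0.0082.

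Wider lists around the pathway showed no called gene in the 3 labelled comparisons, without or with GC offsets. In r1 to r4 against control, where 19.7% of all genes were called, each list below held 2 called genes, a share near that of all genes. Of the 13 tested genes on the list of pentose and ribose steps 1 was higher and 1 lower. PRPS2, which makes phosphoribosyl pyrophosphate from ribose 5-phosphate, had a log2 fold change of 0.53 (edgeR adjusted p = 0.0286). GLYCTK, which encodes glycerate kinase and so is not itself a pentose step, had one of -0.90 (adjusted p = 0.00831). Of the 13 tested genes on the list of other NADPH and NADP makers, not all of which need make either, MTHFD2L was higher (0.46, edgeR adjusted p = 0.0221). NADK, the cytosolic NAD kinase, was lower (-0.44, edgeR adjusted p = 0.0486). Of 10 tested genes where the pathway meets glycolysis, PFKL (-0.86, edgeR adjusted p = 0.00766) and ALDOA (-2.04, adjusted p = 0.00208) were lower. ALDOA counts are uncertain, at 12.3 ± 4.99 CPM in control tumors for a glycolytic enzyme usually among the most abundant, next to 3986 ± 815 for GAPDH. Of 11 tested NADPH-using reductases, POR (-0.80, edgeR adjusted p = 0.00498) and TXNRD2 (-0.88, adjusted p = 0.00746) were lower. With GC offsets, which called 4.05% of all genes, none of these stayed called but ALDOA (-1.54, adjusted p = 0.017), PFKL and NADK turned to 0.32 and 0.21, and DCXR, the L-xylulose reductase, went from -0.39 to 0.85 (SE 0.22, edgeR adjusted p = 0.0439).

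Among 8 genes of the NRF2 axis, 5 passed in r1 to r4 against control, 2 higher and 3 lower, where 4.73% of all genes were called higher and 15% lower. NFE2L2, which encodes NRF2, was at 132 to 166 CPM in r1 to r4 and at 80.5 to 130 in control tumors, with no overlap, which 11.6% of all genes also showed in one direction or the other (log2 fold change 0.56, SE 0.14, edgeR adjusted p = 0.0118). GCLC, the catalytic subunit of glutamate-cysteine ligase and an NRF2 target, was also higher, at 158 to 201 CPM against 103 to 144 (0.54, SE 0.13, edgeR adjusted p = 0.0079). KEAP1 was lower (-0.60, SE 0.20, edgeR adjusted p = 0.0459), but with GC offsets it was at 0.46 (adjusted p = 0.0619), and the small MAF partner MAFG went from -0.57 (adjusted p = 0.0146) to -0.077. SRXN1, which encodes sulfiredoxin and is a known NRF2 target, moved against GCLC. It was at 0.241 to 0.987 CPM in r1 to r4, at 3.38 to 10.1 in control tumors, at 7.34 to 18.02 in Oxy186 r5 to r7 and at 2.81 to 12.5 in Oxy210 tumors. The r1 to r4 values of SRXN1 lie near the floor, with 4 counts in the lowest tumor, so the size of its change is uncertain. Its log2 fold change in r1 to r4 was -3.52 (SE 0.40, edgeR adjusted p = 0.000474), and with GC offsets it was -3.38 (SE 0.37, adjusted p = 0.00129). With GC offsets SRXN1 was the 1 gene of this list still called, beside 4.05% of all genes, NFE2L2 standing at 0.36 (edgeR adjusted p = 0.117) and GCLC at 0.38 (adjusted p = 0.0555).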

How the data were processed

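RNA of 21 xenograft tumors (RIN over 8) was sequenced. Per the study's methods and the submitters' processing notes, reads were trimmed with Trimmomatic 0.39, aligned with STAR 2.7.6a to a combined human (GRCh38.p13) and mouse (GRCm39) genome, and uniquely mapped reads of human genes were counted with featureCounts (Subread 2.0.1). The authors deposited these raw counts, and log2 CPM for control and Oxy186 r1 to r4 from edgeR after filterByExpr and TMM normalization. Log2 CPM recomputed here matched the deposited table (16852 genes, largest difference 4.97e-14), so the raw counts were used throughout. Whether reads were counted by strand is not given in the sources used here.

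Counts were tested with edgeR 4.0.16 (R 4.3.3; quasi-likelihood, filterByExpr, TMM) on the whole table, with Benjamini-Hochberg adjustment over all genes and calls at 0.05 or under. limma 3.58.1 voom, DESeq2 1.42.0, RLE, library size alone, other count filters, all 21 libraries in one fit, GC offsets, a replicate block and leaving out each of r1 to r4 were alternatives. For GC trends, a spline (4 degrees of freedom) was taken in each library on genes averaging 1 or more in log2 CPM. Log2 CPM used a prior count of 2. Correlations used 100000 permutations, or all orders within groups of 7. Exon GC content, lengths and positions came from GENCODE 44 (60481 of 60651 genes matched) and promoters from RefSeq. Scripts were tested on simulated data. The labels do not tie tumors to mice, so p-values measure only the spread between tumors. Same-numbered tumors did not deviate together and were not treated as pairs.

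Members and gene lists were chosen with earlier results of these data known. Named beyond the 9 were the 2 genes most like each, the paralogs, NFE2L2, KEAP1, and list genes called in any comparison. GAPDH was named after its values were seen.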

Additional observations from a re-analysis of the deposited data

Results flagged for a closer look

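In the 27 combinations of gene and group (9 genes, 7 tumors each), no tumor's log2 CPM stood apart from the rest of its group by Dixon's test at the 95% level, where chance would give about 1.35. No gene of the 9 differed between Oxy186 and Oxy210 tumors in edgeR (adjusted p of 0.05 or less).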

How the results depend on the processing

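In the 3 labelled comparisons the count of called genes among the 9 was 0 under every alternative that was run, though DESeq2 gave an adjusted p to only 4 of them between Oxy186 and Oxy210. Over all genes edgeR called 11 in Oxy210 against control without a filter and 2 with the replicate block, and 1 in Oxy186 against Oxy210 with GC offsets (with or without the block), without a filter or with all 21 libraries in one fit. In Oxy186 r1 to r4 against control, where 4 were called, GC offsets gave 0 and GC offsets with the replicate block gave 0. Leaving out 1 of r1 to r4 gave between 1 and 4, with 1 without r3 and 2 without r4. The replicate block alone called 3 of 9 there (PGLS, RPE and ME1) and 0 in the other comparisons. All 21 libraries in one fit called 5, IDH1 being the addition (adjusted p = 0.0495). Correlated pairs numbered 12 without r1 to r4 instead of 23, over fewer tumors.

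Of 396 recomputed log2 fold changes of single genes, 15 changed sign, none with an adjusted p of 0.05 or less under the alternative. With GC offsets TKT was at 0.15 in Oxy186 against control and at 0.33 in r1 to r4, PGLS at 0.11 in r1 to r4, and PGD at 0.022 in Oxy210 against control. With the block and GC offsets together TKT was at 0.12 and 0.33 in the same 2 comparisons, and H6PD at 0.0037 and PGD at 0.027 with Oxy210. With library size alone PGD was at 0.020 and IDH1 at 0.046 with Oxy210, where IDH1 was also at 0.021 in limma voom and at 0.024 with the block. In r1 to r4 TALDO1 was at -0.060 with the block, and without single tumors of r1 to r4 it ran from -0.061 (without r2) to 0.25, and TKT from -0.29 to 0.037 (without r4). The cause of these changes was not tested. For the pairing, 0 of 7 same-numbered control and Oxy186 tumors, 3 of 7 control and Oxy210 and 1 of 7 Oxy186 and Oxy210 had deviations correlated above 0.1. Depth was not limiting, since the lowest count of any of the 9 genes in a tumor was 176.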
